A study of Mus musculus with 24 samples.

Results

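The late step of the response of wild-type (WT) basophils to antigen was followed in 6 of the 24 libraries of the series, 3 from cells taken 4 h after a wash and 3 from cells taken 2 h after it. They were chosen by genotype and time alone, as the labels give them. Mouse bone marrow was kept with IL-3 at 0.3 ng/mL for a total of 7 days to yield basophils. On day 6 the medium received IgE against the hapten TNP (1 µg/mL) and the uridine analogue s4U (150 µM). CD49b-positive cells were drawn out with the DX5 antibody and magnetic beads, and all groups then received TNP-OVA at 10 ng/mL with s4U for 1.5 h before the wash. Antigen and s4U were absent afterwards, and per the labels the WT 4 h and WT 2 h groups differ in the length of this last incubation. Every library therefore comes from stimulated cells, and no unstimulated sample was analysed here. TTP-KO basophils, which lack the RNA-binding protein tristetraprolin encoded by Zfp36, went through the same steps, and their 3 libraries at 4 h and 3 at 2 h serve to set the WT step beside the mutant one. WT libraries taken at 0 h and 1 h give the levels from which the step began. Nothing in the labels ties the libraries to different mice or cultures. The p-values therefore rest on the spread among libraries, which may be technical.

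Crosslinking of IgE on its high-affinity receptor starts kinase and calcium signalling in basophils, and the calcineurin, NFAT and MAP kinase branches switch on genes for cytokines such as IL-4 and IL-13. Many of these messages carry AU-rich elements in their 3' untranslated regions and are short-lived, because proteins of the TTP family bind the elements and recruit deadenylases. Once antigen is removed, the level of such a message depends on what transcription remains and on how fast the RNA is degraded. Levels below are CPM, the reads of a gene scaled to a common library total with TMM factors, in libraries A, B and C in that order. They count 3' tags, so they do not need a correction for length.

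The 6 libraries held 13424560 to 25372890 reads. In the sum of the 35 basophil genes of the identity list, the 4 h libraries held 61581 to 65596 CPM, against 71404 to 74546 CPM in the 2 h libraries. Mcpt8, the basophil granule protease, had 13319, 12242 and 12504 CPM at 4 h, against 11820, 12764 and 11810 CPM at 2 h, and Actb, cytoskeletal actin, had 59287, 59391 and 61172 CPM at 4 h, against 50618, 66206 and 54548 CPM at 2 h. Neither gene passed the test, with log2 changes of 0.06 ± 0.07 (adjusted p = 0.75) and 0.07 ± 0.10 (adjusted p = 0.85). CD49b is also carried by NK cells. The 20 NK and T cell markers together came to 69.6 to 86.5 CPM at 4 h, against 104 to 146 CPM at 2 h. Of these, 8 were at 0 in all 4 h libraries and 7 in all 2 h libraries. The T cell genes Cd3e, Cd3g and Cd4, and Tbx21, were at 0 in all 6 libraries. NK cell genes were not all at 0: Ncr1 had reads at both times, Klrd1 at 2 h and Klrb1c at 4 h.

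From 2 to 4 h, 190 genes rose and 464 fell in WT basophils, of 12936 genes tested (edgeR quasi-likelihood test, Benjamini-Hochberg adjusted p under 0.05). These are 1.47% of the tested genes called higher and 3.59% called lower, and the median log2 change of all tested genes was 0.00. Cytokine messages, early transcription factors and signalling inhibitors were among those that fell. Genes of glycolysis and of ribosome production were among those that rose. The number of genes called higher varied with the libraries kept. It was 97 without library A of 2 h, 122 without library A of 4 h, 110 without library B of 4 h and 227 without library B of 2 h. With library totals in place of TMM factors, 262 genes were called higher and 363 lower, and the median of all tested genes lay at 0.07.

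**Figure D1:**
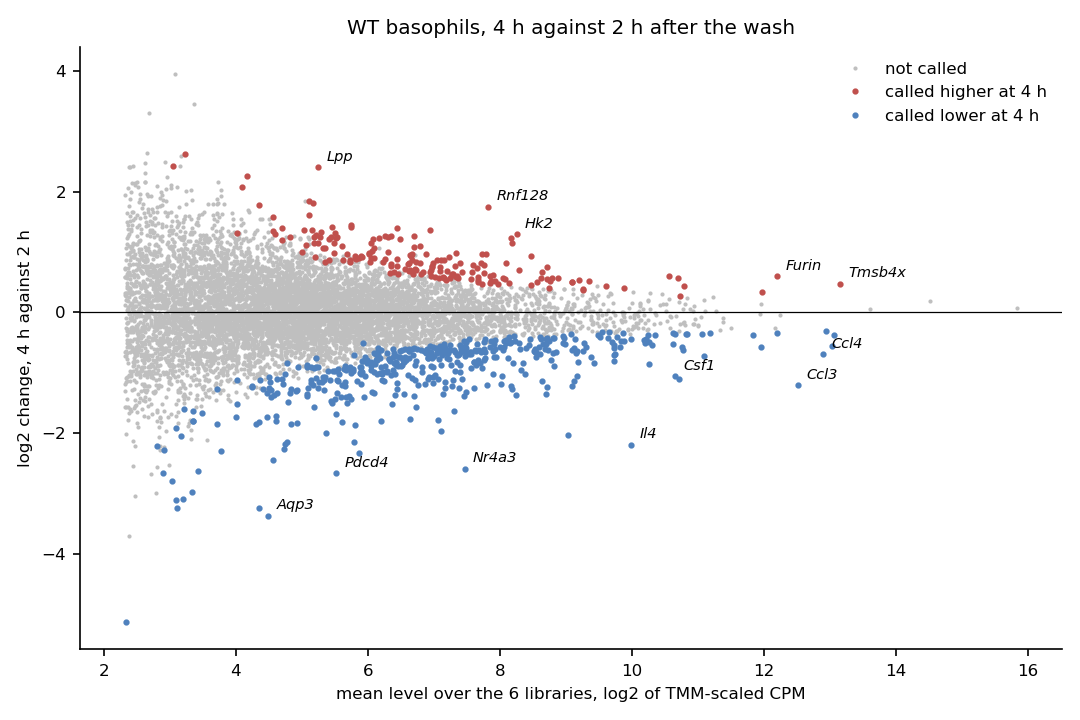
Each point is a gene with a mean of at least 5 CPM over the 6 WT libraries, by its mean level (log2 of TMM-scaled CPM) and its log2 change at 4 h against 2 h; of 8550 genes plotted, 624 passed the test and are coloured by direction. The named genes run from Il4, Ccl3 and Ccl4 among abundant messages that fell to Furin and Tmsb4x among abundant messages that rose.

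Of 37 tested genes for cytokines, chemokines and growth factors, 11 fell and 0 rose, and the median log2 change of the list was -0.30. Il4, the type 2 cytokine that basophils are best known for, had 363, 355 and 382 CPM at 4 h, against 1417, 1858 and 1729 CPM at 2 h. No library at 4 h came near a library at 2 h, and the log2 change was -2.19 ± 0.12 (adjusted p = 2.8e-19). Il13, its neighbour in the type 2 locus, had 29.1, 19.7 and 23.1 CPM at 4 h, against 57.8, 121 and 84.3 CPM at 2 h, a log2 change of -1.87 ± 0.20 (adjusted p = 3e-09). Its 2 h libraries were spread widely, and even the lowest of them stood above every 4 h library. The chemokine gene Ccl3 had 3943, 3255 and 3501 CPM at 4 h, against 8289, 6790 and 9473 CPM at 2 h, with a log2 change of -1.20 ± 0.09 (adjusted p = 1.7e-14). Its relative Ccl4 fell less, by 0.68 on the log2 scale (SE 0.10), to a mean of 5856 CPM at 4 h, against 9406 CPM at 2 h. Both chemokines were still among the abundant messages at 4 h.

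Areg, which encodes the epidermal growth factor relative amphiregulin, had 228, 236 and 286 CPM at 4 h, against 518, 527 and 605 CPM at 2 h (log2 change -1.14 ± 0.11, adjusted p = 1.6e-10). Csf1, the macrophage growth factor, had 1145, 1008 and 989 CPM at 4 h, against 2140, 2038 and 2355 CPM at 2 h (log2 change -1.06 ± 0.09, adjusted p = 1.4e-12). The groups did not overlap for either gene. Tnf had 46.8, 45 and 67.9 CPM at 4 h, against 131, 96.5 and 101 CPM at 2 h, a log2 change of -1.04 ± 0.15 (adjusted p = 1.6e-06). Smaller changes were found for Cxcl2, a neutrophil chemokine, at -0.69 ± 0.10 (adjusted p = 3.5e-06), and for Il6 at -0.57 ± 0.09 (adjusted p = 3.9e-06). The other called members were Osm and Tnfsf14, of which Osm lost its call without library C of 2 h or C of 4 h (adjusted p 0.055 to 0.12) and Tnfsf14 without library A or C of 2 h or C of 4 h (adjusted p 0.082 to 0.42). With 1 library left out in turn, 9 to 12 members were called lower. Ccl24, an eosinophil chemokine, went the other way without passing the test, with 31.1, 19.6 and 32.2 CPM at 4 h, against 9.21, 7.49 and 8.85 CPM at 2 h (log2 change 1.70 ± 0.67, adjusted p = 0.16). All 3 of its 4 h libraries lay above the 2 h libraries, and the gene passed when all genes were kept (adjusted p = 0.013) and when only these groups were fitted (adjusted p = 0.029).

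**Figure D2:**
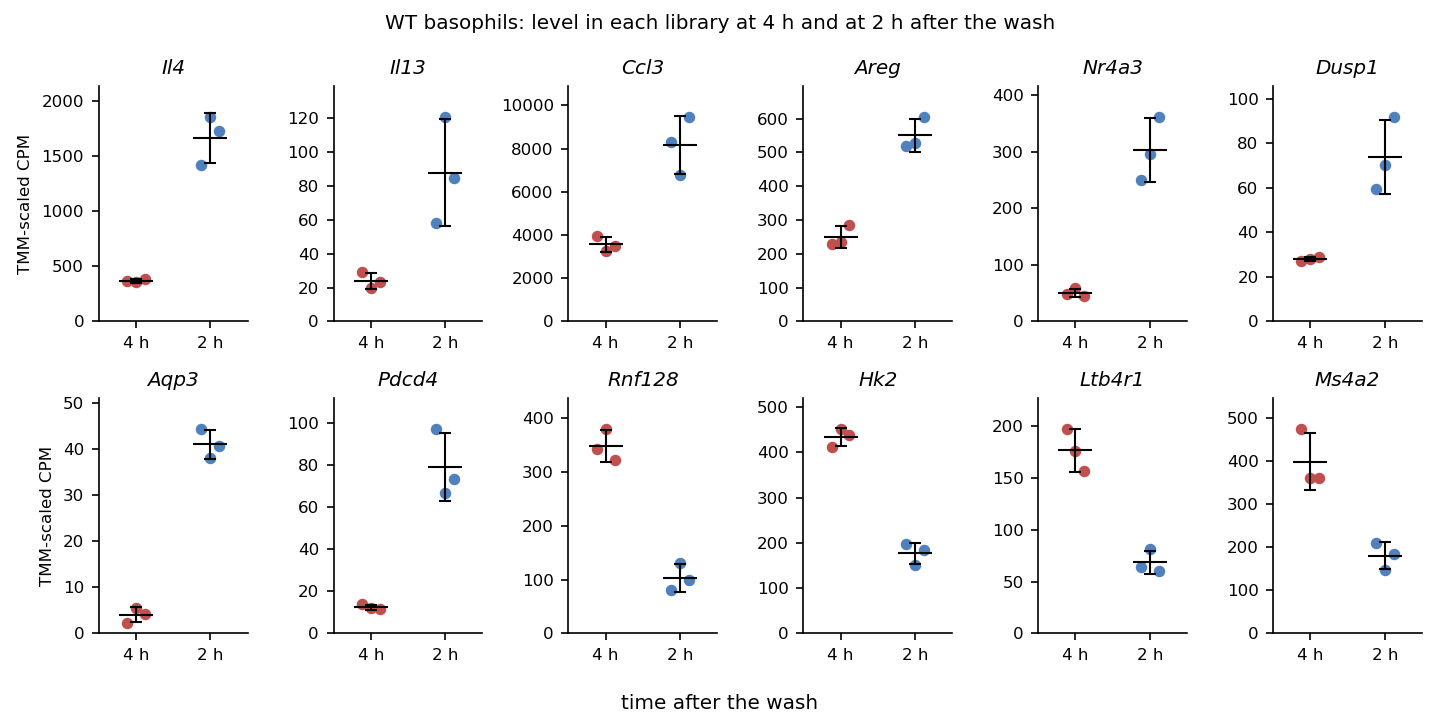
Each point is a WT library, the horizontal bar is the mean and the whisker the SD of 3 libraries, in TMM-scaled CPM; 4 h stands left of 2 h. In the 8 genes from Il4 to Pdcd4 every 4 h library lies below every 2 h library, and in Rnf128, Hk2, Ltb4r1 and Ms4a2 every 4 h library lies above.

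The comparison did not use the sequence of the messages. The heptamer TATTTAT, the core of an AU-rich element, was found in the 3' untranslated region of all 11 called cytokine genes and of 24 of the 37 tested. Lists described below differed in this. Among immediate early genes it was found in 9 of 17 called lower and in 24 of 45 tested. Among feedback genes of the MAP kinase and cytokine pathways the counts were 10 of 12 and 19 of 32. For basophil identity genes they were 1 of 10 and 5 of 35. Sites are shown because TTP family proteins bind this element. For 7 of the genes described here, 30 bases of the GRCm38 annotation (GENCODE M21) are given 5' to 3' on the strand of the message, with the heptamer or, where present, the nonamer TTATTTATT in capitals.
Il13: cttcttgatcTTATTTATTatggttgtgtg
Tnf: tttgcacttaTTATTTATTatttatttatt
Ccl3: gtatttgtgacTATTTATtctgaaagactt
Areg: tatttaagtgTTATTTATTttatagctcat
Ptgs2: ctgaccatatTTATTTATTtatgtgaagaa
Dusp1: gagctggtccTTATTTATTtaacacccccc
Nr4a3: agctttgcctgTATTTATtgcaagaccacc
The Il13 site lies at chr11:53631740-53631769 on the minus strand. Tnf (chr17:35199688-35199717, minus strand) has 8 heptamers and 5 nonamers in 764 bases of untranslated region. The other sites are Ccl3 at chr11:83648002-83648031 (minus), Areg at chr5:91148382-91148411 (plus), Ptgs2 at chr1:150105790-150105819 (plus), Dusp1 at chr17:26506158-26506187 (minus) and Nr4a3 at chr4:48084754-48084783 (plus). These 7 genes were picked with their values known, so they do not speak for all genes with the element.

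Over all 12734 tested genes with an annotated 3' untranslated region, the heptamer was present in 3913. Of these, 4.68% were called lower and 1.25% higher, with a median log2 change of -0.04. Of the 8821 genes without it, 3.16% were called lower and 1.60% higher, with a median of 0.03. Genes with the heptamer have longer untranslated regions, with a median of 2176 bases against 857 bases. With genes split into 3 equal groups by that length, in the group with the shortest regions 3.29% of genes with the heptamer and 2.30% of genes without it were called lower. In the middle group these shares were 4.19% and 3.27%, and in the group with the longest regions 5.20% and 4.67%. For the nonamer the shares with and without it were 6.12% and 2.32% in the shortest group, 6.86% and 3.27% in the middle group, and 3.77% and 5.17%, in the other direction, in the longest group. These shares are given as a description, without a test.

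Genes of the immediate early class, which are switched on within minutes of a stimulus and mostly encode transcription factors, included many decreases: 17 of 45 tested genes were called lower, the highest share of the 33 lists at 37.8%, and 1 was called higher. The list median was -0.57. The NR4A nuclear receptors led. Nr4a3 had 47.7, 58.9 and 45.3 CPM at 4 h, against 250.3, 296 and 362 CPM at 2 h (log2 change -2.58 ± 0.18, adjusted p = 3e-15). Nr4a1 had 63.1, 64.5 and 43 CPM at 4 h, against 175, 242 and 244 CPM at 2 h (log2 change -1.95 ± 0.14, adjusted p = 4.2e-15). Nr4a2 had 7.59, 13.6 and 13.2 CPM at 4 h, against 28.1, 40.0 and 44.3 CPM at 2 h (log2 change -1.71 ± 0.26, adjusted p = 5.5e-06). In each of the 3 receptors the 4 h libraries lay below the 2 h libraries.

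Egr1, a zinc finger factor of the same class, had 156, 124 and 171 CPM at 4 h, against 262, 229.7 and 308 CPM at 2 h (log2 change -0.83 ± 0.13, adjusted p = 1.1e-05), and Egr2 and Egr3 were also called lower. Phlda1 had 34.8, 29.5 and 51.8 CPM at 4 h, against 97.8, 109.8 and 85.4 CPM at 2 h (log2 change -1.33 ± 0.18, adjusted p = 7.1e-07). Fosl2, Klf6, Klf10, Ier5, Btg1, Btg2, Bhlhe40, Csrnp1, Cebpb and Id2 complete the called members. Fosl2 lost its call without library C of 2 h or C of 4 h (adjusted p 0.068 to 0.079), Csrnp1 without library C of 4 h (adjusted p = 0.089) and Cebpb without library B of 2 h (adjusted p = 0.15). With 1 library left out in turn, 16 to 20 members were called lower and 0 higher. Fos, the founding gene of the AP-1 family, was low in both groups and did not pass, with 1.25, 0 and 8.47 CPM at 4 h, against 13.3, 8.45 and 4.85 CPM at 2 h (adjusted p = 0.23). Its groups overlapped through library C of 4 h, and without that library it was called lower (adjusted p = 0.00011). The member called higher was Crem, a cAMP-responsive factor, with 152, 137 and 129 CPM at 4 h, against 87.4, 87.5 and 89.4 CPM at 2 h (log2 change 0.66 ± 0.21, adjusted p = 0.049). It was no longer called without library A, B or C of 2 h or A, B or C of 4 h (adjusted p 0.062 to 0.18).

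The promoter of Nr4a3 is shown because TGACGT, the core of the cAMP response element that CREB proteins bind, occurs in it 3 times. The window runs from 250 bases before to 50 bases after the annotated start (RefSeq, GRCm38.p6, chr4:48045055-48045354, plus strand), with TGACGT in capitals.
Nr4a3: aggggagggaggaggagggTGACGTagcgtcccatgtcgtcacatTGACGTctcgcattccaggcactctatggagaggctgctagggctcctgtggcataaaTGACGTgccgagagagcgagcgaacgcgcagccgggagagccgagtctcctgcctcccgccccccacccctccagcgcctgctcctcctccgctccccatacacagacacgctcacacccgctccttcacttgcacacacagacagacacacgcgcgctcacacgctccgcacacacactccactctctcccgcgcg
TGACGT, searched on both strands, was found in 7 of the 34 immediate early genes with a RefSeq promoter (20.6%), in 11.8% of the promoters of tested genes and in 7.64% of all 27025 promoters. Among genes called lower the share was 12.5%, and among genes called higher 10.2%. In 2 lists with median changes above 0 the share was as high, at 20.9% of ribosome biogenesis promoters and 20.7% of glycolysis promoters. A match is a description of these letters and not evidence of binding.

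The list of feedback genes of the MAP kinase and cytokine pathways, inhibitors and some kinases, also held more decreases than increases. Of 32 tested genes, 12 were called lower and 1 higher, with a list median of -0.38. Leaving out 1 library in turn gave 8 to 14 called lower, the fewest without library C of 2 h. Spred1, Cish and Plk3 lost their calls in some of these fits. Dusp1, a phosphatase of MAP kinases, had 27.3, 28.1 and 28.9 CPM at 4 h, against 59.6, 70.1 and 92 CPM at 2 h (log2 change -1.40 ± 0.17, adjusted p = 6.4e-08). Its 4 h libraries lay within 2 CPM of each other. Dusp2 had 0.648, 9.49 and 16 CPM at 4 h, against 33.5, 26.6 and 32.8 CPM at 2 h (log2 change -1.85 ± 0.44, adjusted p = 0.0056), its 4 h libraries were widely spread, and it did not pass in DESeq2 (adjusted p = 0.095). Rgs16, which speeds the shut-off of G proteins, had 60.4, 62.7 and 49.2 CPM at 4 h, against 111, 189 and 149.8 CPM at 2 h (log2 change -1.38 ± 0.19, adjusted p = 4.6e-07). Errfi1, an inhibitor of the EGF receptor, changed by -1.66 ± 0.47 (adjusted p = 0.023) and lost its call without library C of 2 h or A of 4 h (adjusted p 0.08 to 0.15). Pim3, a serine kinase, rose against the rest of the list, with 470.2, 379 and 364 CPM at 4 h, against 149, 181 and 185 CPM at 2 h (log2 change 1.24 ± 0.14, adjusted p = 3e-09). Its relative Pim1 was among the genes called lower.

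In the NF-kB list 2 of 32 tested genes were called lower (6.25%, against 3.59% of all tested genes) and 0 higher. The median was -0.27, with 25 members below 0 and 7 above. The called genes were Nfkb1 (-0.76 ± 0.18, adjusted p = 0.0039) and Cd44 (-0.57 ± 0.11, adjusted p = 0.00024). Nfkbia, which encodes the NF-kB inhibitor IκBα, had 971, 1153 and 1127 CPM at 4 h, against 952, 1377 and 1198 CPM at 2 h and did not pass (log2 change -0.12 ± 0.12, adjusted p = 0.72). Of 28 tested genes of the calcineurin and NFAT response, 7 were called lower and 0 higher, with a median of -0.35. Ptgs2, the inducible cyclooxygenase, was one of them, with 190.2, 137 and 183 CPM at 4 h, against 336, 291 and 439 CPM at 2 h (log2 change -1.06 ± 0.13, adjusted p = 1.2e-07). Il4, Il13, Tnf, Egr2, Egr3 and Nfatc1 were the others.

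Among 48 tested regulators of RNA decay, 4 were called lower (8.33%, against 3.59% of all tested genes) and 0 higher, with a median of -0.13. They were Zfp36l2, a relative of TTP, with 197, 221 and 208 CPM at 4 h, against 344, 302 and 313 CPM at 2 h (log2 change -0.61 ± 0.13, adjusted p = 0.00087), the antiproliferative factors Btg1 and Btg2, which recruit deadenylases, and the helicase gene Ddx6, which lost its call without library A of 2 h or B of 4 h (adjusted p 0.11 to 0.14). Zfp36 itself had 58.4, 68.5 and 78.2 CPM at 4 h, against 73.3, 74.5 and 78.8 CPM at 2 h, with a log2 change of -0.14 ± 0.24 (adjusted p = 0.89). Zfp36l1 had 36.7, 57.2 and 49.3 CPM at 4 h, against 59, 62.3 and 91.1 CPM at 2 h and missed the threshold (log2 change -0.57 ± 0.20, adjusted p = 0.085). It passed in DESeq2 (adjusted p = 0.046), without library A of 2 h (adjusted p = 0.042) and without library B of 4 h (adjusted p = 0.035). Of 53 tested genes described in earlier work as TTP targets, 18 were called lower and 1 higher, with a median of -0.56. Over the same step in KO basophils, 22 of them were called lower and 3 higher, with a median of -0.49. For the KO minus WT difference of the step, 0 of the 53 were called in the edgeR test. Without adjustment 13 of the 53 had p under 0.05 in that test, against 983 of 12936 genes in all. That list shares Il4, Il13, Tnf, Dusp1, Egr1 and others with the lists above.

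**Figure D3:**
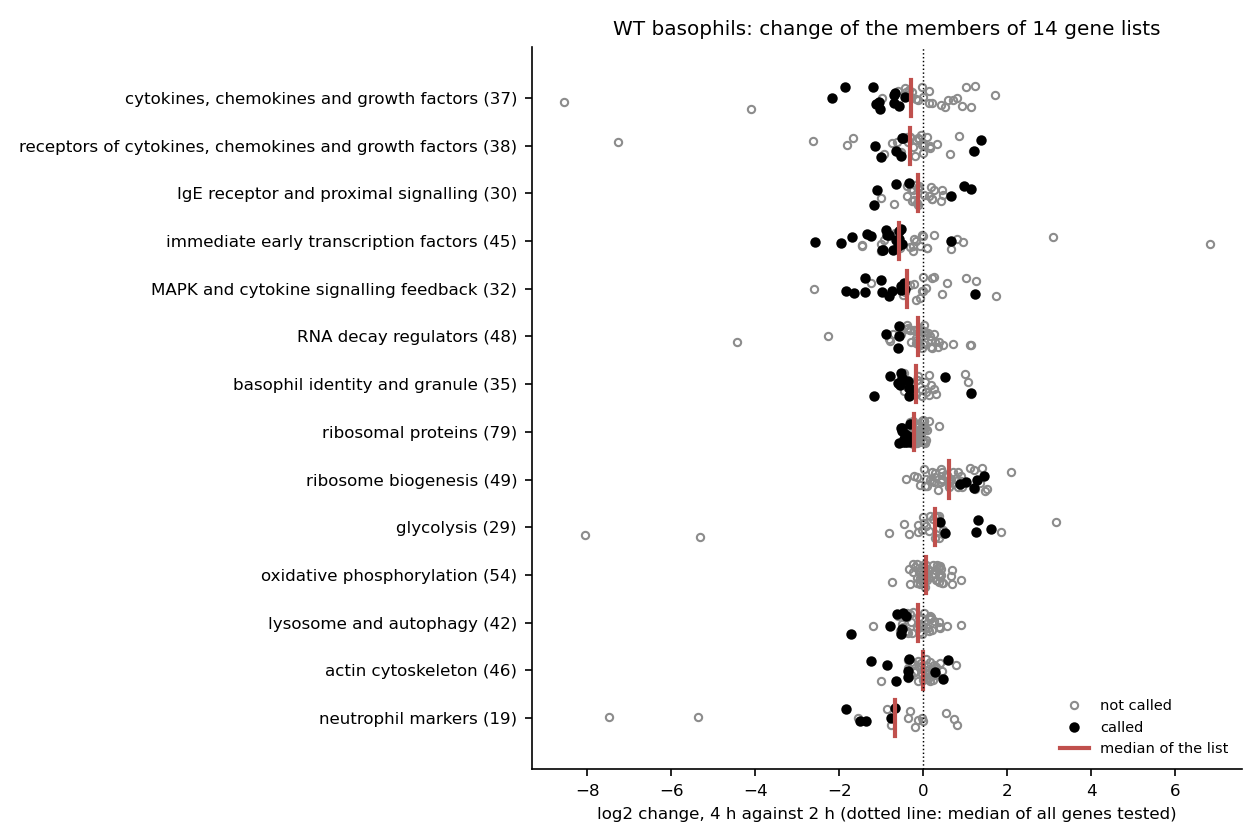
Each circle is a gene, placed by its log2 change at 4 h against 2 h in WT basophils; filled circles passed the test, the red bar is the median of the list and the number in brackets is the number of tested genes. The immediate early list has its median at -0.57 and the ribosome biogenesis list at 0.61, on either side of the median of all tested genes at 0.00.

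Receptors and signalling proteins moved in both directions. Of 38 receptors of cytokines, chemokines and growth factors, 6 were called lower and 2 higher (median -0.33). Ltb4r1, a receptor for leukotriene B4, had 197, 175 and 156 CPM at 4 h, against 63.6, 81.5 and 60.0 CPM at 2 h (log2 change 1.37 ± 0.19, adjusted p = 7e-07). Ptger3, a prostaglandin E2 receptor, also rose, with 115, 75.4 and 92.2 CPM at 4 h, against 29.4, 37.1 and 55.7 CPM at 2 h (log2 change 1.21 ± 0.27, adjusted p = 0.0023). Another prostaglandin E2 receptor gene, Ptger4, fell: it had 51.6, 36.3 and 30.2 CPM at 4 h, against 84.1, 85 and 70.8 CPM at 2 h (log2 change -1.02 ± 0.19, adjusted p = 0.00018). Cxcr4, which draws cells to CXCL12, had 86.8, 80.3 and 101 CPM at 4 h, against 210.3, 196 and 191 CPM at 2 h (log2 change -1.16 ± 0.13, adjusted p = 8.4e-09). Il1rl1, the IL-33 receptor gene, was called lower together with Ccr1, Tnfrsf1b and C5ar1. Tnfrsf1b lost its call without library C of 2 h or A of 4 h (adjusted p 0.066 to 0.072) and C5ar1 without library B of 2 h or B of 4 h (adjusted p 0.061 to 0.20).

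The subunits of the IgE receptor did not move together. Ms4a2, the beta subunit, had 476, 362 and 360.4 CPM at 4 h, against 209.7, 147 and 186 CPM at 2 h (log2 change 1.14 ± 0.16, adjusted p = 5.6e-07). Fcer1a, the alpha subunit that binds IgE, had 72.7, 73.7 and 86.4 CPM at 4 h, against 219.9, 126 and 179 CPM at 2 h (log2 change -1.17 ± 0.18, adjusted p = 9.1e-06). Fcer1g, the signalling gamma subunit, fell by 0.35 on the log2 scale (SE 0.09, adjusted p = 0.0086). Hence the beta subunit rose while the alpha and gamma subunits fell, with no overlap between 4 h and 2 h libraries in any of them. In the list of 30 receptor and proximal signalling genes, 4 were called lower and 3 higher (median -0.13). The calcium channel gene Orai1 and the kinase gene Fyn fell, at -1.09 ± 0.16 (adjusted p = 2.5e-06) and -0.66 ± 0.19 (adjusted p = 0.03). Plcg2 and Prkcb, which act downstream of the receptor, rose, at 0.97 ± 0.27 (adjusted p = 0.022) and 0.66 ± 0.18 (adjusted p = 0.023). The calls of 4 of these genes were lost in fits that left out 1 library. Fcer1g lost its call without library C of 2 h (adjusted p = 0.097) and Fyn without library C of 2 h or C of 4 h (adjusted p 0.13 to 0.24). Plcg2 lost it without library A or B of 2 h or A of 4 h (adjusted p 0.084 to 0.28). Prkcb lost it without library A or B of 2 h or B or C of 4 h (adjusted p 0.062 to 0.093), with log2 changes of 0.59 to 0.63 in those fits.

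Of 35 basophil identity and granule genes, 10 were called lower and 2 higher, with a median of -0.18. Hdc, which makes histamine, had 7527, 6650 and 6158 CPM at 4 h, against 9348, 11163 and 9496 CPM at 2 h (log2 change -0.56 ± 0.09, adjusted p = 1e-05). The granule protease gene Prss34 had 7308, 6839 and 6921 CPM at 4 h, against 8469, 8651 and 8995 CPM at 2 h (log2 change -0.31 ± 0.07, adjusted p = 0.0024). Both genes stayed abundant at 4 h. Cpa3 changed by -0.62 ± 0.10 (adjusted p = 4.2e-05), the transcription factor gene Gata2 by -0.53 ± 0.09 (adjusted p = 6.8e-05) and Perp by -0.79 ± 0.11 (adjusted p = 4.9e-07). Cebpa, a myeloid transcription factor, rose, with 506, 522 and 505 CPM at 4 h, against 304, 433 and 338 CPM at 2 h (log2 change 0.51 ± 0.14, adjusted p = 0.023), but was not called without library A or C of 2 h or A, B or C of 4 h (adjusted p 0.055 to 0.21). With 1 library left out in turn, 6 to 11 identity genes were called lower, the fewest without library C of 2 h. Among 26 lipid mediator genes, Alox5, which starts leukotriene synthesis, rose by 0.52 (SE 0.11, adjusted p = 0.00097), and Ptgs2 and Acsl4 fell.

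The largest decreases among genes with a mean of at least 10 CPM lay mostly outside the cytokine lists. Aqp3, a channel for water and glycerol, had 2.32, 5.6 and 4.12 CPM at 4 h, against 44.3, 37.9 and 40.5 CPM at 2 h (log2 change -3.36 ± 0.29, adjusted p = 2.5e-12). Pdcd4, an inhibitor of translation, had 13.8, 11.9 and 11.8 CPM at 4 h, against 97.2, 66.8 and 73.3 CPM at 2 h (log2 change -2.66 ± 0.22, adjusted p = 1.4e-12). Maml2, a co-activator of Notch signalling, had 4.77, 4.75 and 2.21 CPM at 4 h, against 48.2, 23.8 and 38.8 CPM at 2 h (log2 change -3.24 ± 0.56, adjusted p = 6.1e-05). In all 3 genes the 4 h level was a small part of the 2 h level in every library. Dok7 (-2.98 ± 0.44), the prion protein gene Prnp (-2.62 ± 0.53), the chaperone gene Hspa4l (-2.18 ± 0.26) and the trafficking gene Rab11fip4 (-2.15 ± 0.33) also fell. Gstm1, a glutathione transferase, changed by -2.43 ± 0.31, Ggct by -2.26 ± 0.26 and the metallothionein gene Mt2 by -2.33 ± 0.22. Mt2 had 20.9, 17.9 and 19.1 CPM at 4 h, against 91.5, 109.6 and 90.3 CPM at 2 h (adjusted p = 5.2e-11). For Gstm1, library C of 2 h stood at 74.9 CPM, above the 20.5 and 24.8 CPM of libraries A and B, and still no 4 h library exceeded 9.37 CPM. Id2, a partner of helix-loop-helix factors, is an abundant message that fell, with 3005, 3287 and 3296 CPM at 4 h, against 3829, 5723 and 4705 CPM at 2 h (log2 change -0.57 ± 0.10, adjusted p = 0.00013). Of 34 survival and apoptosis genes, 2 were called lower (5.88%, against 3.59% of all tested genes) and 0 higher. The list median was 0.07, with 18 members above 0 and 16 below. The called genes were Bcl2l11 and Pmaip1, both encoding promoters of cell death. Bcl2l11 had 241, 277 and 237 CPM at 4 h, against 612, 557 and 606 CPM at 2 h (log2 change -1.23 ± 0.12, adjusted p = 3.6e-11).

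Among genes that rose and had a mean of at least 10 CPM and groups that did not overlap, Lpp, a protein of focal adhesions, changed most, with 61, 70.3 and 60.0 CPM at 4 h, against 12.4, 15 and 8.74 CPM at 2 h (log2 change 2.40 ± 0.44, adjusted p = 0.00018). Rnf128, an E3 ubiquitin ligase, had 343, 381 and 323 CPM at 4 h, against 80.7, 132 and 98.9 CPM at 2 h (log2 change 1.75 ± 0.19, adjusted p = 3.5e-09). The 2 groups of libraries were well separated in both. Scamp4, a protein of secretory vesicles, rose with a log2 change of 1.84 ± 0.38 (adjusted p = 0.00084). Gm49322, which overlaps Scamp4 in the annotation, showed nearly the same values (1.80 ± 0.35), and the split of reads between this pair is uncertain. Ciao2a, of the iron-sulfur cluster assembly machinery, changed by 1.41 ± 0.27 (adjusted p = 0.00042).

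Others of the 12 largest increases lost their calls in some fits that left out 1 library. Lars2, the mitochondrial leucyl-tRNA synthetase, had 34.1, 35.7 and 19.8 CPM at 4 h, against 2.01, 11.8 and 4.92 CPM at 2 h (log2 change 2.26 ± 0.59, adjusted p = 0.012). Dpagt1, of N-glycan synthesis, changed by 2.07 ± 0.50 (adjusted p = 0.0054), and Acadsb, a mitochondrial acyl-CoA dehydrogenase, by 1.77 ± 0.46 (adjusted p = 0.012). Exosc5, a subunit of the RNA exosome, changed by 1.58 ± 0.45 (adjusted p = 0.023), and Enah, an actin regulator, by 1.41 ± 0.38 (adjusted p = 0.016). Lars2 lost its call without library A or C of 2 h or B of 4 h (adjusted p 0.056 to 0.10), and Exosc5 without library C of 2 h or B or C of 4 h (adjusted p 0.051 to 0.17). Enah lost its call without library B of 2 h or A of 4 h (adjusted p 0.11 to 0.17), Acadsb without library A of 2 h (adjusted p = 0.10) and Dpagt1 without library C of 2 h (adjusted p = 0.068).

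Glycolysis genes leaned upward, with 5 of 29 tested genes called higher, 0 lower and a list median of 0.28. Hk2, a hexokinase that phosphorylates glucose at the entry of the pathway, had 413, 452 and 437 CPM at 4 h, against 197, 150.4 and 183 CPM at 2 h (log2 change 1.29 ± 0.17, adjusted p = 1.7e-07). Tpi1, triose phosphate isomerase, had 186, 107 and 147 CPM at 4 h, against 49.2, 71.5 and 63.1 CPM at 2 h (log2 change 1.26 ± 0.21, adjusted p = 4.1e-05). In both genes the lowest 4 h library lay above the highest 2 h library. Gpi1 (0.50 ± 0.14, adjusted p = 0.024) and Aldoa (0.40 ± 0.11, adjusted p = 0.016) are enzymes of the same pathway. Gpi1 lost its call without library A of 2 h or A or B of 4 h (adjusted p 0.054 to 0.19) and Aldoa without library A or C of 2 h or A or B of 4 h (adjusted p 0.10 to 0.13). The remaining called member, Bnip3, acts in mitophagy and not in glycolysis, with 51.5, 62.5 and 41.6 CPM at 4 h, against 3.89, 16.5 and 30.7 CPM at 2 h (log2 change 1.60 ± 0.45, adjusted p = 0.023), and lost its call without library A of 2 h or B of 4 h (adjusted p 0.086 to 0.19) and when only these groups were fitted (adjusted p = 0.10). With 1 library left out in turn, 2 to 6 glycolysis genes were called higher, the fewest without library B of 4 h. Oxidative phosphorylation genes showed 0 calls in 54 tested genes, with a median of 0.06. Its most abundant member Cox7c stood at 543 CPM at 4 h, against 554 CPM at 2 h.

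Ribosome biogenesis genes shared a direction: 45 of 49 tested genes had a log2 change above 0, against 6428 of 12936 genes in all, and the list median was 0.61. Of these, 5 were called higher and 0 lower. Noc2l, whose yeast relative takes part in the export of pre-ribosomes, had 56.9, 55.8 and 44.3 CPM at 4 h, against 16.7, 25.4 and 22.7 CPM at 2 h (log2 change 1.28 ± 0.37, adjusted p = 0.027). Wdr43, of the small subunit processome, had 157, 84.6 and 136 CPM at 4 h, against 63.6, 52.4 and 47.1 CPM at 2 h (log2 change 1.21 ± 0.29, adjusted p = 0.0048). Dkc1, the pseudouridine synthase dyskerin, changed by 0.87 ± 0.23 (adjusted p = 0.016), and Pa2g4 by 1.01 ± 0.26 (adjusted p = 0.0099). Noc2l lost its call without library A or C of 2 h or A or B of 4 h (adjusted p 0.07 to 0.15), Dkc1 without library A of 2 h (adjusted p = 0.17) and Pa2g4 without library A of 2 h or B of 4 h (adjusted p 0.065 to 0.066), and 2 to 5 genes of the list were called higher with 1 library left out in turn, the fewest without library A of 2 h. Srm makes the polyamine spermidine and is no ribosome factor; it had 84, 84.8 and 66.7 CPM at 4 h, against 26, 30.1 and 30.4 CPM at 2 h (log2 change 1.44 ± 0.31, adjusted p = 0.0017). Genes for ribosomal proteins did not follow: 13 of 79 were called lower and 0 higher, with a median of -0.22. Rps23 had 604, 734 and 688 CPM at 4 h, against 949, 957 and 1140 CPM at 2 h (log2 change -0.59 ± 0.13, adjusted p = 0.0034). Without library C of 2 h or library B of 4 h, 7 were called lower, and 4 of the 13 kept their call in every fit that left out 1 library. The calls also varied with scaling. With library totals in place of TMM factors, Rps4x, Rps6, Rps7, Rpl4, Rpl10, Rpl13a, Rpl28 and Rpl39 lost their calls (adjusted p 0.076 to 0.14). Many ribosomal protein genes have near-identical pseudogenes, and the sources used here do not give how reads were shared among copies.

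The promoter of Wdr43 is shown for the hexamer CACGTG, the E-box that MYC and related factors bind, which it holds once (RefSeq, GRCm38.p6, chr17:71615965-71616264, plus strand, hexamer in capitals). The gene was picked after its values were seen.
Wdr43: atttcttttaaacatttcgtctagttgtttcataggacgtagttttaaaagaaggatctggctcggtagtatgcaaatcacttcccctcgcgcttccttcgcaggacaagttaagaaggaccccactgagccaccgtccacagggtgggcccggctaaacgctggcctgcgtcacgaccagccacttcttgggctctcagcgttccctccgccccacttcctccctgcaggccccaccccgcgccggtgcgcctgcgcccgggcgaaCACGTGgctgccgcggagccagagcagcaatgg
CACGTG was present in 10 of 43 ribosome biogenesis genes with a RefSeq promoter (23.3%), in 10.0% of the promoters of tested genes and in 7.24% of all promoters. Among genes called higher the share was 12.2%, and among genes called lower 10.3%. The hexamer was not particular to lists that rose. It was found in 17.65% of immediate early promoters (list median -0.57) and in 17.2% of glycolysis promoters (list median 0.28). For cytokine, chemokine and growth factor promoters (list median -0.30) the share was 3.33%.

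By absolute gain, the leading genes were cytoskeletal and secretory. Tmsb4x, which binds actin monomers, had 9944, 11012 and 10760 CPM at 4 h, against 6382, 9818 and 6619 CPM at 2 h (log2 change 0.47 ± 0.13, adjusted p = 0.025). Library B of 2 h was close to the 4 h libraries. The gene lost its call in DESeq2 (adjusted p = 0.17) and without library A or C of 2 h or B or C of 4 h (adjusted p 0.053 to 0.22). Furin, a proprotein convertase, had 6311, 5206 and 5463 CPM at 4 h, against 3390, 4385 and 3400 CPM at 2 h (log2 change 0.60 ± 0.10, adjusted p = 4.7e-05). Gnai2, an inhibitory G protein subunit, had 1936, 2014 and 1977 CPM at 4 h, against 1243, 1468 and 1282 CPM at 2 h (log2 change 0.57 ± 0.10, adjusted p = 4.9e-05). Both held their groups apart with no overlap. Tagln2, an actin-binding protein, changed by 0.43 ± 0.10 (adjusted p = 0.0026). S100a6, a calcium-binding protein, was just past the threshold at 0.35 ± 0.11 (adjusted p = 0.046) and missed it without library A or C of 2 h or A, B or C of 4 h (adjusted p 0.056 to 0.37). In the actin list as a whole 3 of 46 genes were called higher and 6 lower, with a median of 0.00; with 1 library left out in turn, 1 to 4 were called higher and 4 to 8 lower. Vcl, vinculin, had 84, 68.8 and 104 CPM at 4 h, against 239, 161 and 210.3 CPM at 2 h (log2 change -1.25 ± 0.17, adjusted p = 4.9e-07), and the intermediate filament gene Vim changed by -0.86 ± 0.10 (adjusted p = 1.1e-08).

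Stress and turnover lists were mixed. Of 42 genes of the unfolded protein and integrated stress responses, 4 were called lower (9.52%, against 3.59% of all tested genes). In that list 1 was called higher (2.38%, against 1.47%), and the median was -0.005. Hspa5, the main chaperone of the endoplasmic reticulum, had 704, 714 and 661 CPM at 4 h, against 990.3, 972 and 1047 CPM at 2 h (log2 change -0.53 ± 0.10, adjusted p = 0.00044), and Xbp1 and Slc7a11 fell with it. Pdia4, a disulfide isomerase of the same compartment, rose by 0.81 (SE 0.22, adjusted p = 0.014) and lost its call in DESeq2 (adjusted p = 0.059) and without library A of 2 h or B of 4 h (adjusted p 0.057 to 0.14). Of 21 heat shock genes, Hspa8, Hspe1 and Ahsa1 were called higher and Hspa4l lower. The increases lost their calls without library B or C of 2 h or A of 4 h (adjusted p 0.063 to 0.25) for Hspa8, library A, B or C of 2 h or A or B of 4 h (adjusted p 0.06 to 0.16) for Hspe1 and library A, B or C of 2 h or A or B of 4 h (adjusted p 0.07 to 0.13) for Ahsa1. Of 42 lysosome and autophagy genes, 7 were called lower and 0 higher, and 2 were called lower without library A of 2 h. Ctsl, cathepsin L, had 7.5, 11 and 12.5 CPM at 4 h, against 18.9, 47 and 36.3 CPM at 2 h (log2 change -1.72 ± 0.20, adjusted p = 1.8e-08). Of 43 cell cycle genes 3 were called lower (6.98%, against 3.59% of all tested genes) and 0 higher, and Ccnd2 led the decreases (-0.72 ± 0.09, adjusted p = 1.6e-07). Among 28 genes of alternative activation, Chil3 rose (0.87 ± 0.17, adjusted p = 0.0003) and Pdcd1lg2, Cd274, Il1rn and Cish fell. Cd274 lost its call without library C of 2 h or B or C of 4 h (adjusted p 0.058 to 0.087), Il1rn without library A or C of 2 h or B of 4 h (adjusted p 0.064 to 0.26) and Cish without library B or C of 2 h or B or C of 4 h (adjusted p 0.052 to 0.21). Arg1 was low, its groups overlapped and it did not pass, with 5.19, 8.5 and 5.37 CPM at 4 h, against 0.754, 5.64 and 5.66 CPM at 2 h (adjusted p = 0.79). The interferon list had 1 of 35 genes called higher (2.86%, against 1.47% of all tested genes) and 0 lower. That gene, Rsad2 (0.84 ± 0.26, adjusted p = 0.048), was not called without library A or B of 2 h or B or C of 4 h (adjusted p 0.12 to 0.28). The cholesterol and proteasome lists had 0 calls in 36 and 39 genes, and Pomp, which aids proteasome assembly, had a log2 change of 0.07 ± 0.15. The p53 list had 4 of 28 genes called lower (14.3%, against 3.59% of all tested genes) and 1, Ccng1, called higher (3.57%, against 1.47%). Ccng1 lost its call without library B or C of 2 h or A or C of 4 h (adjusted p 0.06 to 0.14).

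Markers of other cells moved too. Of 19 tested neutrophil markers, 5 were called lower and 0 higher, with a median of -0.68. Camp, a granule peptide of neutrophils, had 11.8, 16 and 12.1 CPM at 4 h, against 55.9, 53.2 and 32.9 CPM at 2 h (log2 change -1.83 ± 0.29, adjusted p = 1.1e-05), and Ltf, Retnlg, Ngp and Lcn2 were the others, of which Lcn2 lost its call without library C of 2 h (adjusted p = 0.07). The 19 neutrophil markers summed to 3252 to 3408 CPM at 4 h, against 3640 to 4458 CPM at 2 h, and Elane and Cebpe were at 0 in all 3 libraries at 4 h. The 24 macrophage markers summed to 773 to 845 CPM at 4 h, against 897 to 939 CPM at 2 h, and 1 of them, Apoe, was called lower. Of 11 tested mast cell markers, Tpsb2 was called higher and Cpa3 and Gata2, which basophils express as well, lower; Tpsb2 lost its call without library C of 2 h or A of 4 h (adjusted p 0.093 to 0.16). The 13 mast cell markers summed to 2903 to 3128 CPM at 4 h, against 3764 to 4588 CPM at 2 h. The eosinophil list had 0 calls in 11 tested genes, the list of dendritic and B cell markers had 0 in 20, and the erythroid and progenitor list had Spi1 and Ppbp called lower of 22. Spi1 lost its call without library B of 2 h (adjusted p = 0.079) and Ppbp without library A or C of 2 h or A or B of 4 h (adjusted p 0.066 to 0.12). In RNA of whole samples, fewer cells of a type and less RNA per cell cannot be told apart. Whether these markers have a part in the changes described above was not tested.

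The step from 2 to 4 h was set against the step of equal length before it. The change from 2 to 4 h was higher than that from 0 to 2 h in 187 genes, 1.45% of those tested, and lower in 174, 1.35%. The 2 h libraries enter both steps, so a high or low 2 h library moves both. Without library A of 2 h, 87 genes were called higher and 127 lower. Library totals in place of TMM factors gave 117 genes higher and 303 lower, with the median of all genes at -0.23.

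Among genes with the lower later step, Il4 stood at 3181, 3195, 1668 and 367 CPM at 0, 1, 2 and 4 h. Its log2 change was -2.19 ± 0.12 in the later step, against -0.93 ± 0.11 in the earlier one, a difference of -1.25 ± 0.19 (adjusted p = 1.6e-05). Aqp3 ran at 36.1, 70.6, 40.9 and 4.01 CPM over the same times. It changed by -3.36 ± 0.29 in the later step, against 0.18 ± 0.26 in the earlier one (adjusted p of the difference = 1.9e-07). Chst11, a sulfotransferase of chondroitin, ran at 33.1, 176, 240.3 and 77.2 CPM (difference -4.50 ± 0.28, adjusted p = 2.8e-16). Maml2 had the same shape, at 1.08, 20.6, 36.9 and 3.91 CPM. For Mmp13 and Ccl1 the later step minus the earlier one was -3.77 ± 0.72 and -4.43 ± 0.70. Col18a1 was at 0 in all 3 libraries of 0 h, at 9.56 CPM at 2 h and at 23.2 CPM at 4 h, and no fold is given for it.

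The opposite pattern was a fall in the first 2 h followed by recovery or by a slower fall. Hcar2, the receptor for niacin and ketone bodies, stood at 101, 64.8, 18.3 and 47 CPM over the 4 times. Its later change was 1.36 ± 0.29, against -2.46 ± 0.30 before (adjusted p of the difference = 3e-06). Inpp4b, a phosphoinositide phosphatase, stood at 204, 119.9, 47.7 and 126 CPM (adjusted p of the difference = 5.5e-07). Nr4a1 slowed instead of turning: it changed by -1.95 ± 0.14 in the later step, against -3.19 ± 0.14 in the earlier one (adjusted p of the difference = 0.00055). Egr1, Ptgs2 and Ccl4 slowed likewise, with differences of 1.56 ± 0.23, 1.38 ± 0.24 and 0.68 ± 0.17. Zfp36 changed by -0.14 ± 0.24 in the later step, against -1.65 ± 0.24 in the earlier one, a difference of 1.50 ± 0.42 (adjusted p = 0.036). That difference did not pass in DESeq2 (adjusted p = 0.094), with library totals (adjusted p = 0.079) or without library B of 0 h or A, B or C of 2 h or C of 4 h (adjusted p 0.064 to 0.15). Dglucy, Acadsb, Dpagt1 and Fosb are also in this group. Dglucy was no longer called without library A of 2 h (adjusted p = 0.062), Acadsb without library A of 2 h (adjusted p = 0.14) and Dpagt1 without library B of 0 h or A or C of 2 h or B of 4 h (adjusted p 0.054 to 0.19). Fosb was not called in DESeq2 (adjusted p = 0.22), with library totals (adjusted p = 0.058), when only these groups were fitted (adjusted p = 0.055) or without library A or B of 2 h or C of 4 h (adjusted p 0.093 to 0.58), and without library C of 4 h its difference was 1.68, against 4.27 with all libraries. Ccl4 lost its call without library A of 2 h (adjusted p = 0.32) and with library totals (adjusted p = 0.068). For Il13, Tnf, Areg, Csf1, Il6 and Ccl3, the difference between steps did not pass the test, though that of Il13 passed without the filter (adjusted p = 0.002), without library C of 0 h (adjusted p = 0.0495) and without library B of 2 h (adjusted p = 0.0024), and that of Areg with library totals (adjusted p = 0.026).

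**Figure D4:**
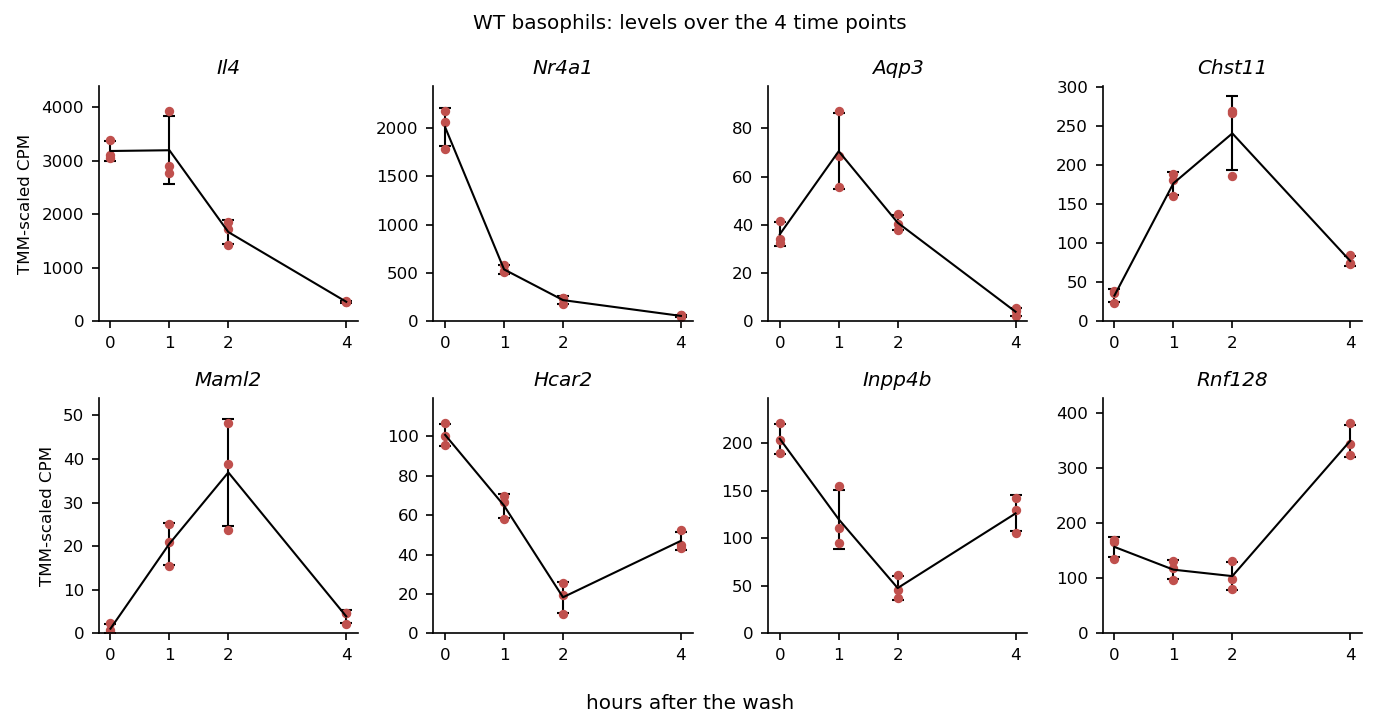
Points are the 3 WT libraries at 0, 1, 2 and 4 h after the wash, in TMM-scaled CPM, and the line joins the means with SD whiskers. Il4 holds near its first level until 1 h, Nr4a1 falls from the start, Aqp3, Chst11 and Maml2 peak at 1 or 2 h, and Hcar2, Inpp4b and Rnf128 are higher at 4 h than at 2 h.

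In TTP-KO basophils the same step was tested for a difference from WT. Zfp36, the gene inactivated in these cells, had 22.4, 62.1 and 28.1 CPM in KO at 4 h and 41.9, 27.1 and 51.1 CPM in KO at 2 h, and 3' tags need not lie in the part that was altered. In 1 gene the change was higher in KO and in 1 it was lower, 0.00773% of the tested genes each. Without adjustment 983 genes had p under 0.05, and DESeq2 called 56 higher and 43 lower. When only these 4 groups were fitted, edgeR called 0 in each direction, with 737 genes at an unadjusted p under 0.05. Il4 changed by -2.18 ± 0.12 in KO, against -2.19 ± 0.12 in WT, and the 95% interval of the difference ran over -0.32 to 0.33. For Areg the changes were -1.15 ± 0.11 in KO and -1.14 ± 0.11 in WT (interval of the difference -0.33 to 0.30). For Nr4a3 they were -2.66 ± 0.18 in KO and -2.58 ± 0.18 in WT (interval -0.56 to 0.41). Like changes did not always go with like levels. Il4 had means of 1174 CPM at 4 h and 5321 CPM at 2 h in KO, against 367 and 1668 CPM in WT. Areg had 524 and 1165 CPM in KO, against 250 and 550 CPM in WT. Nr4a3 had 46.7 and 296 CPM in KO, against 50.6 and 303 CPM in WT. Differences in level between the genotypes were not tested here.

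Ptgs2 fell by 1.95 on the log2 scale in KO and by 1.06 in WT, a difference of -0.89 ± 0.19 that missed the threshold (adjusted p = 0.058). It passed in DESeq2 (adjusted p = 0.045), without the filter (adjusted p = 1.9e-05) and with each of 6 of the 12 libraries left out in turn. Ccl4 gave -1.31 ± 0.10 in KO and -0.68 ± 0.10 in WT, a difference of -0.62 ± 0.14 (adjusted p = 0.09). It passed without the filter (adjusted p = 3.9e-05) and with each of 5 of the 12 libraries left out, with an adjusted p of 5.9e-05 without library A of KO 4 h. For Il13, Csf1, Cxcl2 and Ccl3 the differences were -0.43 ± 0.28, -0.46 ± 0.12, -0.44 ± 0.14 and -0.41 ± 0.12, and none passed. The Csf1 difference passed in DESeq2 (adjusted p = 0.044) and without library A of KO 4 h (adjusted p = 0.015). The cytokine list had a median step of -0.59 in KO and -0.30 in WT. The ribosome biogenesis list had 0.48 in KO and 0.61 in WT, and the glycolysis list 0.14 in KO and 0.28 in WT.

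**Figure D5:**
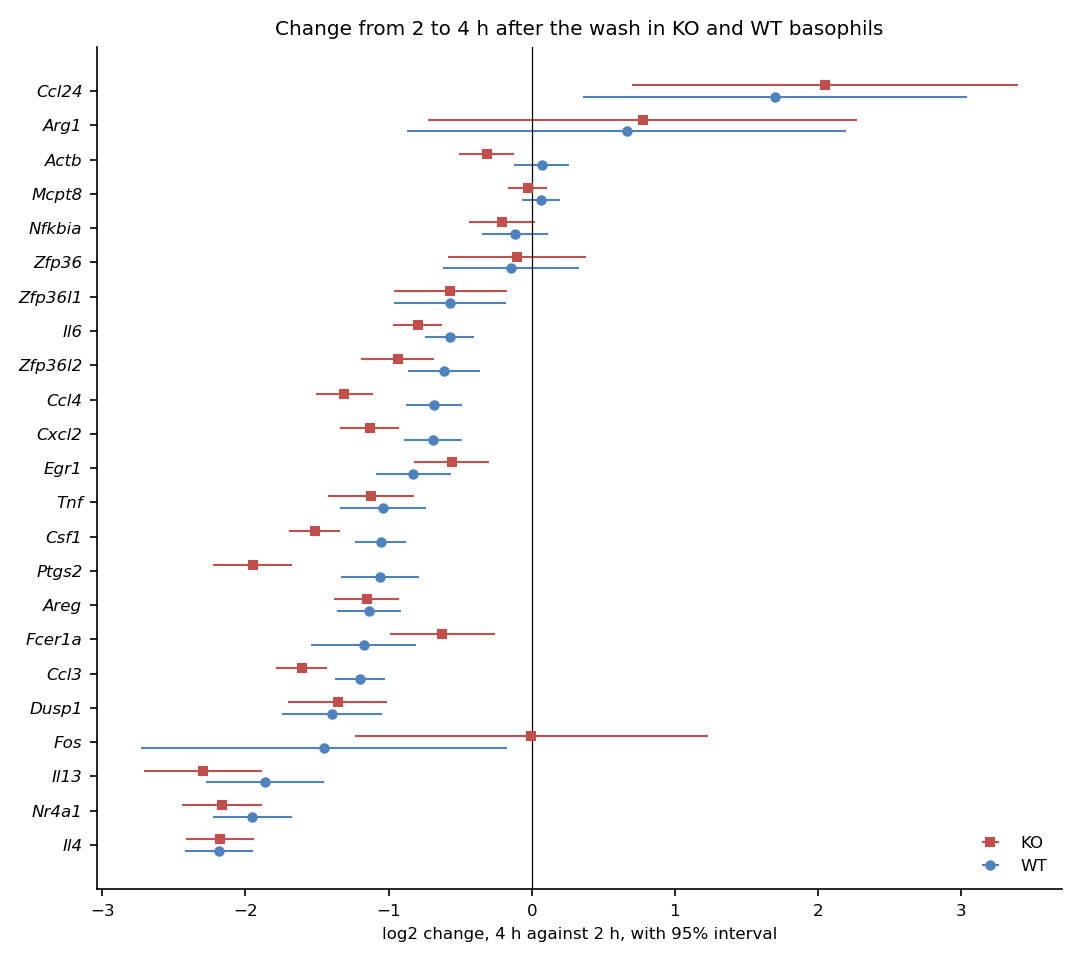
For the 23 genes named whatever their result, squares give the log2 change at 4 h against 2 h in KO and circles in WT, with 95% intervals from the edgeR fit. Ptgs2, Ccl4, Csf1 and Ccl3 lie further left in KO, and the symbols of Il4, Areg, Tnf and Dusp1 lie nearly on top of each other.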

How the data were processed

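Per the labels' protocols, 65 ng of RNA treated with iodoacetamide (10 mM, 50 °C, 15 min) was made into QuantSeq 3' mRNA V2 libraries and read on a NovaSeq 6000. GRCm39 is the build, and SAMtools, STAR 2.7.10a and cutadapt 3.5 are the tools, listed in the submitters' processing notes. The deposited table holds an expected count of reads for each of 15737 genes in each library, not normalized by the authors per the file headers; 12.8% of the values were not whole, and all were rounded. How reads were assigned to genes is not given in the sources used here. Columns carry a genotype, a time and a letter that the labels tie to no replicate number, and each column counts as 1 library of the group it names. Since 1 measure can be kept for such columns, 144 further per-sample columns with the new-to-total ratio, its interval and its shape parameters were not used here. The step described is therefore one of total RNA.

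Reads were scaled with TMM factors in edgeR 4.0.16 (R 4.3.3) and filtered with filterByExpr, which kept 12936 genes. One quasi-likelihood fit over all 24 libraries had 8 group means and was checked on simulated data. Contrasts gave WT 4 h against 2 h, the same step in KO minus that in WT, and the WT step from 2 to 4 h minus that from 0 to 2 h. The threshold was an adjusted p (Benjamini-Hochberg) under 0.05; every adjusted p is from this edgeR fit unless DESeq2 1.42.0 is named. Log2 changes carry standard errors. The lowest library of the 6 held 13424560 reads. Chi-square per degree of freedom between libraries of 1 group lay between 36.3 and 77.2, so none repeated another.

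Named were 23 genes whatever their result, the 12 largest increases and decreases and the 6 largest CPM differences each way among called genes with a mean of at least 10 CPM and no overlap, the 6 largest each way in the other contrasts, and up to 4 called members of each of 33 lists. Members and lists were chosen with earlier results of these data known. Lists are described by counts and medians without a test. Some genes and sites that these rules pick are not reported here. Untranslated regions came from GENCODE M21 (GRCm38) for 12734 of 12936 tested genes, and promoters from RefSeq. Alternatives were library totals, RLE factors, no filter, DESeq2, fits of fewer groups and leaving out each library.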

Additional observations from a re-analysis of the deposited data

Results flagged for a closer look

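The step from 2 to 4 h differed between KO and WT basophils in 2 genes by the edgeR test of the difference. Ctsl, which encodes the lysosomal protease cathepsin L, had 227, 221 and 231 CPM in KO at 4 h, against 251, 282 and 297 CPM in KO at 2 h. In WT it had 7.5, 11 and 12.5 CPM at 4 h, against 18.9, 47 and 36.3 CPM at 2 h. The log2 change was -0.29 ± 0.19 in KO and -1.72 ± 0.20 in WT, a difference of 1.43 ± 0.27 (95% interval 0.88 to 1.98, adjusted p = 0.027). Every KO library stood above every WT library, at both times. The call was lost without library B of WT 2 h (difference 1.13, adjusted p = 0.073) and when only these 4 groups were fitted (adjusted p = 0.61). The 24 macrophage markers summed to 1781 to 2269 CPM in KO at 4 h and to 2246 to 2642 CPM in KO at 2 h. In WT they summed to 773 to 845 CPM at 4 h and 897 to 939 CPM at 2 h. Whether a different content of such cells has a part in the Ctsl values was not tested.

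Micall1, a protein of endocytic recycling, had 7.97, 5.23 and 14 CPM in KO at 4 h, against 63.6, 58.8 and 39.4 CPM in KO at 2 h. In WT it had 33.4, 36.8 and 27 CPM at 4 h, against 52.8, 28.3 and 39.2 CPM at 2 h. The KO libraries did not overlap between times and the WT libraries did. The log2 change was -2.57 ± 0.30 in KO and -0.31 ± 0.28 in WT, a difference of -2.26 ± 0.40 (95% interval -3.06 to -1.45, adjusted p = 0.012). It was called in all 12 fits that left out a library and lost when only these 4 groups were fitted (adjusted p = 0.61).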

How the results depend on the processing

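No paired analysis was possible because the columns carry letters that the labels tie to no replicate number. For WT 4 h against 2 h (190 genes higher, 464 lower), DESeq2 gave 385 higher, and a fit of these groups alone 120 higher and 278 lower. Leaving out 1 library gave 97 to 227 higher and 341 to 473 lower. All 190 genes called higher and 363 of those called lower were shared with library totals, under which 41.9% of calls were higher, against 29.1% with TMM. For KO minus WT (1 higher, 1 lower), library totals and RLE factors each gave 2 higher, no filter 8 higher and 12 lower, DESeq2 56 higher and 43 lower, and a fit of these groups alone 0 and 0, with 737 genes at an unadjusted p under 0.05. Leaving out 1 library gave 0 to 16 higher and 1 to 33 lower, the upper ends without library A of KO 4 h. For the later minus the earlier WT step (187 higher, 174 lower), library totals gave 117 higher and 303 lower, and DESeq2 411 higher and 362 lower. Leaving out 1 library gave 87 to 202 higher and 127 to 196 lower. Among named genes and called list members, 2739 values under an alternative kept direction and side of the threshold, 326 lost a call, 33 gained one and 48 of genes that were not called changed sign; no called gene reversed. Of list and motif medians, 346 moved by less than the spread between libraries and 52 by more. The cause of these shifts was not tested. Depth limits genes of few reads: 3 counts correspond to 0.111 to 0.198 CPM in the 6 libraries, for counting error only, and reads, not molecules, were counted.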

Other observations

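Some called genes had no reads in 1 of the groups, and for these only levels are given. All 3 libraries at 4 h were at 0 in 14 genes called lower, of which Fgf2, a fibroblast growth factor, had the highest level at 2 h, 10.4, 7.17 and 4 CPM. All 3 libraries at 2 h were at 0 in 7 genes called higher, of which Dmrta2, a transcription factor gene, had the highest level at 4 h, 5.97, 6.26 and 7.7 CPM. S100b, which encodes a calcium-binding protein, had 6.48, 2.37 and 3.94 CPM at 4 h and 0 in the 2 h libraries. These genes were chosen after their values were seen.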
